A study of Mus musculus with 13 samples.

Results

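The collagen genes of the mouse were followed in liver RNA from 13 mice, as the genes whose symbol is Col, a number, a and a number (Col1a1, Col18a1 and so on). Of the 23785 genes with counts in any table, 44 were collagen genes, and none of them was chosen for its values. All mice were 3-month-old male C57 mice, and the ligated mice were wild type for Gnmt. The no BDL group held 5 mice without ligation. In the other groups the common bile duct was tied off (bile duct ligation, BDL), a model of obstructive cholestasis in which bile acids injure the liver and scar tissue forms around the bile ducts. Of these mice, 4 received a control oligonucleotide (miR-Ctrl BDL) and 4 received an oligonucleotide that blocks the microRNA miR-873-5p (anti-miR-873-5p BDL, shortened to anti-miR BDL below). Each intravenous dose was 60 µg per mouse, given with a lipid carrier on days 3 and 5, and livers were collected on day 7. No surgery and no oligonucleotide is described for the no BDL mice, so the effects of ligation, surgery and oligonucleotide cannot be told apart in a comparison with them. RNA came from whole liver, in which more cells of a type and more RNA per cell cannot be told apart.

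Collagens are proteins whose chains wind around each other into a helix. Fibril-forming collagens such as collagen I, III and V make the fibres of scar tissue, collagen IV makes the mesh of basement membranes, collagen VI makes beaded filaments around cells, and collagen XV and XVIII sit where basement membranes meet the surrounding matrix. In an injured liver, stellate cells and portal fibroblasts that become myofibroblasts are the main source of fibrillar collagen, while the hepatocyte is known as a source of collagen XVIII.

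The mature microRNA that the oligonucleotide blocks, named miR-873a-5p in the mouse, is shown with its seed (bases 2 to 8) in capitals. It lies on the minus strand at chr4:36668556-36668576 (GRCm38, RefSeq). The letters complementary to the seed, GTTCCTG, were searched in the annotated 3′ UTRs of the collagen genes and were found in 4 of 44 genes (9.09%), against 16.4% of the 12873 genes tested between the BDL groups that have an annotated 3′ UTR. The sites are printed with the matching letters in capitals.
miR-873a-5p: gCAGGAACuugugagucuccu
Col1a1: ccactcttctaGTTCCTGggcctatctga
Col12a1: tagtcacaggtGTTCCTGcccactggctg
Col4a4: atctgaattcaGTTCCTGgcacccaggaa
Col25a1: agatccacacaGTTCCTGatcttgtgcgc
The site began at base 1172 of 1423 of the 3′ UTR of Col1a1, the first chain of collagen I, and at base 657 of 2178 in Col12a1. In Col4a4 it began at base 1693 of 4708, and in Col25a1 at base 77 of 4185. A match is a string of letters and was not tested as a binding site. The Gnmt 3′ UTR printed by the study does not hold GTTCCTG. The study reports that a mimic of the microRNA lowered the activity of a reporter with that 3′ UTR. Absence of the letters therefore does not show that a gene escapes the microRNA.

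Promoter windows of 250 bases before the gene start are shown for 3 collagens that were higher in both BDL groups and lie on different chromosomes, with the letters CCAAT or TATAAA in capitals where a window holds them on either strand (GRCm38, RefSeq).
Col1a2, plus strand, chr6:4505368-4505617: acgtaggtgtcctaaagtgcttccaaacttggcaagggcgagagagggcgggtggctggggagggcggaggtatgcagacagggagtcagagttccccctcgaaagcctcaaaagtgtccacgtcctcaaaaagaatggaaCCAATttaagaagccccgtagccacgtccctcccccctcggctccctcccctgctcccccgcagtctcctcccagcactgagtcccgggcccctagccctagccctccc
Col3a1, plus strand, chr1:45311288-45311537: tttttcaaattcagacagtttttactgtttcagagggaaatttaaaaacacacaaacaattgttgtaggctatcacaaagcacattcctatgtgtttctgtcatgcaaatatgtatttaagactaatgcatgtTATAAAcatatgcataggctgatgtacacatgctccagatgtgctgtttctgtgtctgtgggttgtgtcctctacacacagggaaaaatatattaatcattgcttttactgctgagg
Col6a1, minus strand, chr10:76726045-76726294: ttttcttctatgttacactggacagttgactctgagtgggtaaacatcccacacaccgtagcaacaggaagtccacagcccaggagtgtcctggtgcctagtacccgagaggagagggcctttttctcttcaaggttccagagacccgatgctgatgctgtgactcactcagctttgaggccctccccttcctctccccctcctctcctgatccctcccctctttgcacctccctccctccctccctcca
Also searched were GGGCGG, the letters of a GC box, and CAGACA, letters to which SMAD proteins of the TGF-beta pathway can bind. The Col1a2 window held CCAAT and the letters of the GC box and the SMAD site, the Col3a1 window held TATAAA and the letters of the SMAD site, and the Col6a1 window held none of the 4 motifs on either strand. A promoter entry was matched for 35 of the 44 collagen genes. CCAAT was in 37.1% of these windows and in 37.5% of all 27025 windows, TATAAA in 14.3% and 14.3%, CAGACA in 25.7% and 19.3%, and GGGCGG in 60% and 35.4%.

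The depth ran from 12185333 to 19689037 gene reads per mouse. Levels below are normalized counts, that is counts per equal library size (edgeR's cpm) after TMM scaling over all 13 mice. Adjusted p values come from the quasi-likelihood test of edgeR, with the Benjamini-Hochberg method over all genes of a comparison. A count of 3 reads, taken as the limit below which a gene was not detectable, is worth 0.147 to 0.286 normalized counts. Scaling decided some directions, since with library size alone the median log2 change of all genes against no BDL was 0.79 in miR-Ctrl BDL and 0.82 in anti-miR BDL, and near 0 with TMM. The study filtered outliers without naming them, and its table of the BDL groups against each other lacks miR-Ctrl mouse 3 and anti-miR mouse 2, called the absent mice below, which are kept in the tables against no BDL. Both stood apart in several collagen genes, and values without them are given beside many of the results they move.

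Most collagen genes that could be tested were higher in ligated livers. In miR-Ctrl BDL against no BDL, 13 of the 23 collagen genes tested were higher and 4 lower, where 19.1% of all genes tested were higher and 16.6% lower. The median log2 change of the 23 was 1.10, against -0.01 over all genes. In anti-miR BDL against no BDL, 14 of 25 were higher and 2 lower, where 13.1% of all genes were higher and 8.44% lower, and the median was 1.36. Without miR-Ctrl mouse 3 the counts were 16 higher and 4 lower of 29 tested, where 22.2% of all genes were higher and 20.1% lower. Without anti-miR mouse 2 they were 18 higher and 2 lower of 28 tested, where 18.4% of all genes were higher and 13.4% lower. The 2 comparisons share their 5 no BDL mice and are given side by side.

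**Figure D1:**
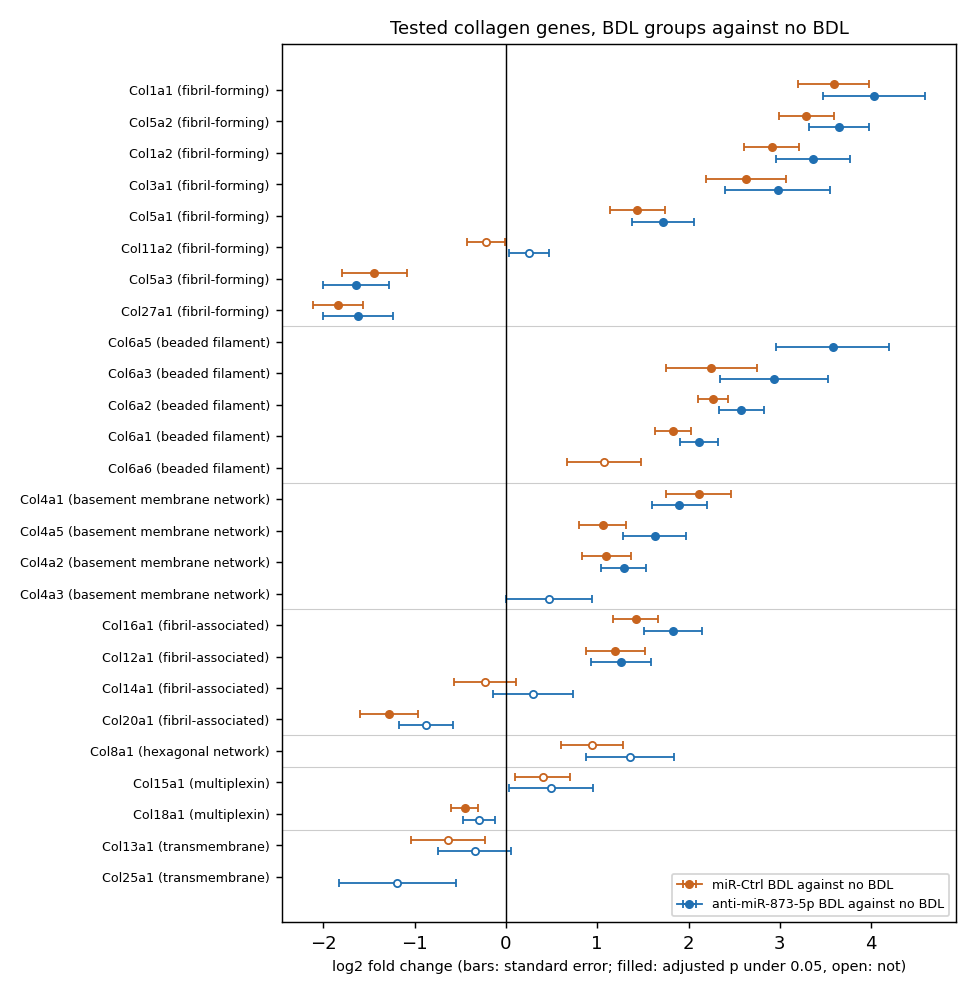
Log2 fold change (x axis) of each collagen gene tested (y axis, grouped by class) in miR-Ctrl BDL (orange) and anti-miR BDL (blue) against no BDL, with bars for the standard error and filled points for an adjusted p under 0.05. Col1a1, at 3.59 and 4.03, lies farthest to the right, and Col5a3 and Col27a1 lie left of 0 with filled points in both comparisons.

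Fibril-forming collagens showed both the highest and the lowest fold changes. Of their 11 genes 8 were tested against no BDL, and in each BDL group 5 were higher and 2 lower. Col1a1 (Entrez gene 12842, chr11:94936224-94953042), the main chain of collagen I, had 11, 3.24, 5.33, 11.2 and 10.7 normalized counts in the no BDL mice 1 to 5. In miR-Ctrl BDL mice 1 to 4 it had 96.2, 152, 65.2 and 78.7, and in anti-miR BDL mice 1 to 4 it had 116, 30.2, 176 and 208. Every ligated mouse was above every no BDL mouse, and anti-miR mouse 2 was the lowest of the ligated mice. In miR-Ctrl BDL Col1a1 rose 12-fold, a log2 change of 3.59 (SE 0.39, edgeR adjusted p = 0.000236), and in anti-miR BDL 16.4-fold, a log2 change of 4.03 (SE 0.56, edgeR adjusted p = 0.00206).

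Col1a2 (Entrez gene 12843), the partner chain of collagen I, had 14.1, 7.34, 8.68, 10.8 and 15.3 normalized counts in the no BDL mice. It had 77.6, 128, 49.7 and 76.9 in miR-Ctrl BDL and 94.9, 39.0, 153 and 164 in anti-miR BDL, again with no overlap with no BDL. The increase in miR-Ctrl BDL was 7.53-fold (edgeR adjusted p = 0.000203), and it was 10.2-fold (edgeR adjusted p = 0.00115) in anti-miR BDL. Col3a1 (Entrez gene 12825), which encodes collagen III, the fibre that accompanies collagen I in early scars, had 39.6, 16.7, 16.2, 29.2 and 33.3 in no BDL. It reached 178, 288, 61.2 and 128 in miR-Ctrl BDL and 233, 29.3, 230 and 340 in anti-miR BDL. Anti-miR mouse 2 lay within the range of the no BDL mice, while the other 7 ligated mice lay above it. Col3a1 rose 6.21-fold (edgeR adjusted p = 0.00166) and 7.89-fold (edgeR adjusted p = 0.00762).

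Col5a2, a chain of collagen V, which sits in the core of collagen I fibrils, had 2.33, 2.57, 1.20, 1.73 and 2.54 normalized counts in no BDL, 17.9, 31.6, 15.8 and 14.7 in miR-Ctrl BDL and 21.1, 14.3, 27.1 and 40.0 in anti-miR BDL. Its groups against no BDL did not overlap, and it rose by 3.29 (SE 0.30, edgeR adjusted p = 0.000121) and 3.65 (SE 0.33, edgeR adjusted p = 0.000397) on the log2 scale. Col5a2 lies 24625 bases from Col3a1 on chromosome 1. The partner chain Col5a1 rose less in fold, by 1.44 (edgeR adjusted p = 0.00533) and 1.72 (edgeR adjusted p = 0.00801) on the log2 scale, from 6.0 to 8.29 normalized counts in no BDL to 9.42 to 31.7 and 8.04 to 34.8, with anti-miR mouse 2 inside the no BDL range.

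**Figure D2:**
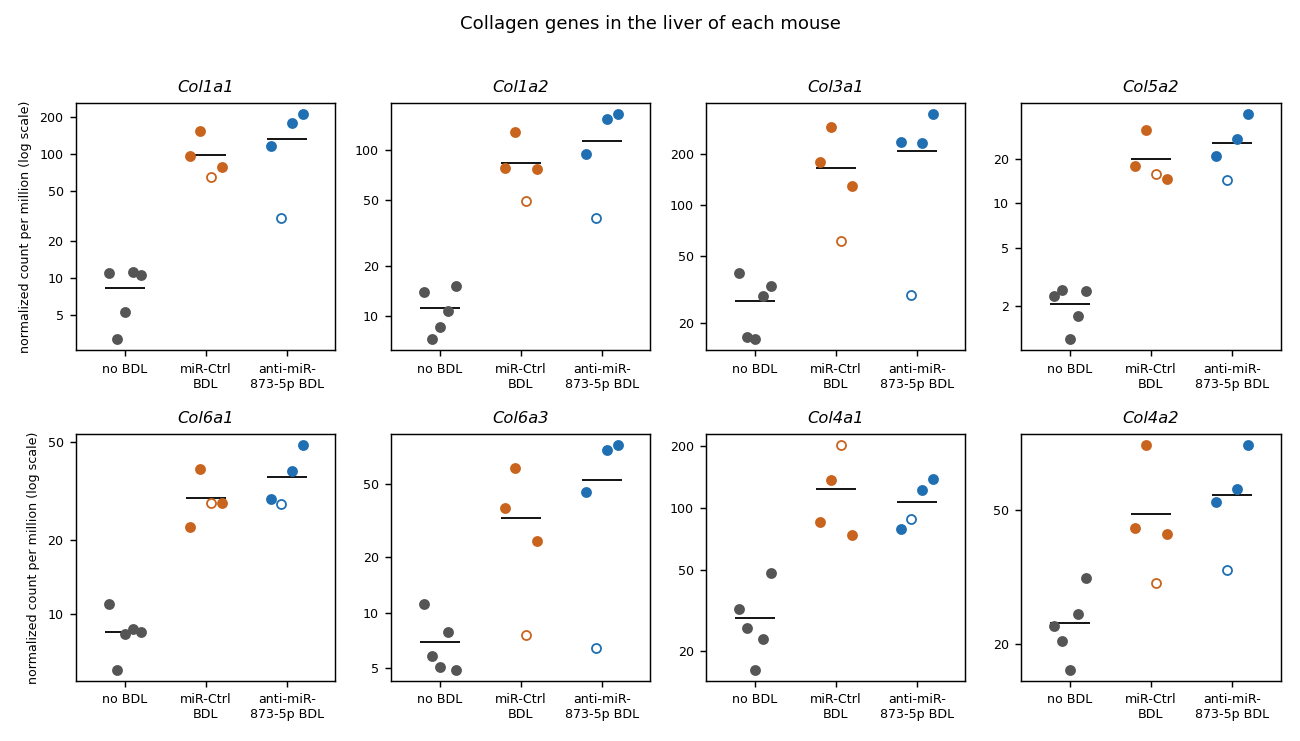
Normalized count (y axis, log scale) of 8 collagen genes in each mouse of the 3 groups (x axis), with a black bar for the mean and open symbols for miR-Ctrl mouse 3 and anti-miR mouse 2. Both ligated groups lie above no BDL except for both open symbols of Col6a3, the anti-miR open symbol of Col3a1 and the miR-Ctrl open symbol of Col4a2.

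The third collagen V chain went the other way. Col5a3 (Entrez gene 53867, chr9:20770050-20815117) had 95, 103, 77.3, 73.4 and 93.9 normalized counts in no BDL, and was the collagen with the second highest level per kilobase there. It had 43.1, 43.3, 10.1 and 31.3 in miR-Ctrl BDL and 46.5, 10.8, 34.5 and 19.1 in anti-miR BDL. All 8 ligated mice were below all 5 no BDL mice, and miR-Ctrl mouse 3 and anti-miR mouse 2 were the lowest of their groups. Col5a3 fell 2.71-fold (edgeR adjusted p = 0.0117) and 3.12-fold (edgeR adjusted p = 0.0134), and kept its direction with library size alone, where its log2 change was -0.57 (edgeR adjusted p = 0.18) and -0.81 (edgeR adjusted p = 0.0498).

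Col27a1 (Entrez gene 373864, chr4:63214009-63334991), a fibril-forming collagen best known from cartilage, had 37.5, 51.9, 54.3, 60.1 and 22.7 normalized counts in no BDL. It had 11.2, 15.9, 11.2 and 11.2 in miR-Ctrl BDL and 20.4, 5.62, 14.9 and 16.7 in anti-miR BDL, so every ligated mouse was below the lowest no BDL mouse. Col27a1 fell 3.59-fold (edgeR adjusted p = 0.000999) and 3.06-fold (edgeR adjusted p = 0.0169), and the second call was lost without anti-miR mouse 3 (edgeR adjusted p = 0.0505). With library size alone its log2 changes were also negative, -1.05 (edgeR adjusted p = 0.00956) and -0.78 (edgeR adjusted p = 0.0900). Col11a2, a collagen XI chain, was at 1.08 to 2.11 normalized counts in the 13 mice, and its log2 change of -0.22 (edgeR adjusted p = 0.462) in miR-Ctrl BDL turned positive with library size alone.

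**Figure D3:**
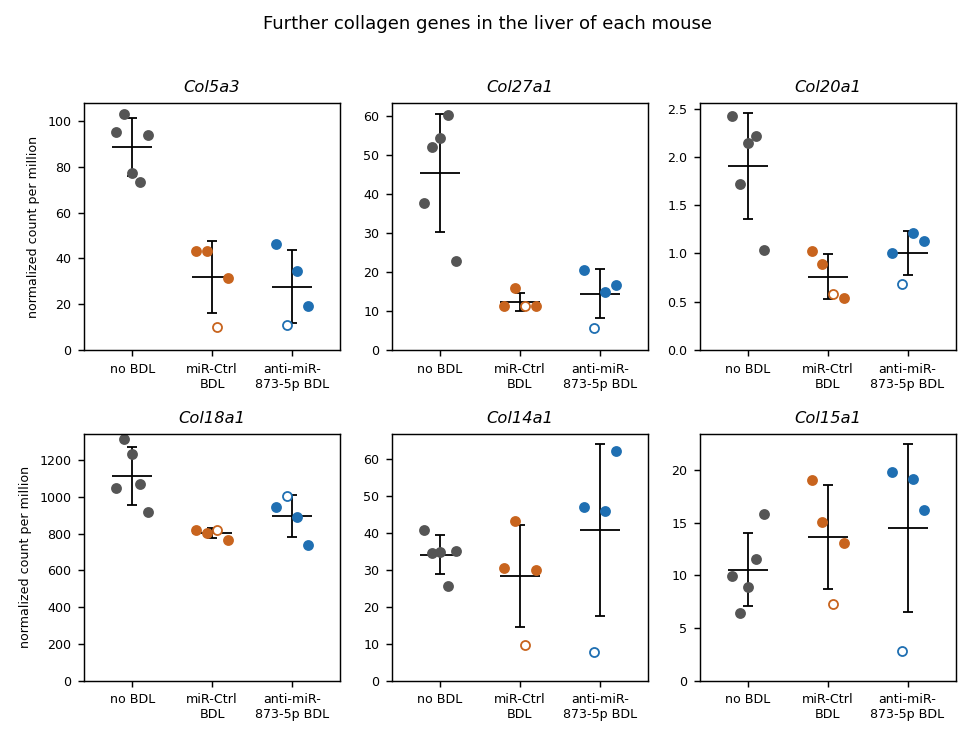
Normalized count (y axis, from 0) of 6 collagen genes in each mouse of the 3 groups (x axis), with bars for the mean ± SD and open symbols for miR-Ctrl mouse 3 and anti-miR mouse 2. Col5a3 and Col27a1 are below no BDL in all 8 ligated mice, and the open symbols are the lowest of their groups in Col5a3, Col14a1 and Col15a1.

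Of the beaded filament collagens, 3 of 4 tested were higher in miR-Ctrl BDL and 4 of 4 in anti-miR BDL, out of 6 genes. Without the absent mice it was 4 of 5 in each, where 22.2% and 18.4% of all genes were higher. Col6a1 (Entrez gene 12833), a core chain of collagen VI, had 11, 5.91, 8.25, 8.63 and 8.43 normalized counts in no BDL, 22.5, 38.8, 28.3 and 28.3 in miR-Ctrl BDL and 29.2, 27.8, 38.0 and 48.5 in anti-miR BDL. The groups did not overlap with no BDL and no mouse of a group stood apart, so Col6a1 rose 3.55-fold (edgeR adjusted p = 0.000214) and 4.34-fold (edgeR adjusted p = 0.000609). Col6a2, the other short core chain, had 5.36, 4.38, 4.47, 4.60 and 3.90 normalized counts in no BDL, 16.1, 27.0, 19.8 and 23.3 in miR-Ctrl BDL and 21.9, 15.6, 32.2 and 36.5 in anti-miR BDL. It rose 4.83-fold (edgeR adjusted p = 5.65e-05) and 5.98-fold (edgeR adjusted p = 0.000515), again without overlap.

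Col6a3, the long chain that joins Col6a1 and Col6a2, differed from them in the absent mice. It had 11.2, 5.82, 5.07, 7.89 and 4.93 normalized counts in no BDL, and 37.0, 60.6, 7.58 and 24.4 in miR-Ctrl BDL and 44.9, 6.45, 76.1 and 80.8 in anti-miR BDL. MiR-Ctrl mouse 3 had 18.6% of the mean of the other 3 mice of its group and anti-miR mouse 2 had 9.59%, which put both inside the no BDL range. For Col6a1 the same mice were at 94.5% and 72.2%. Col6a3 rose by 2.25 (edgeR adjusted p = 0.00695) and 2.94 (edgeR adjusted p = 0.00898) on the log2 scale with these mice included. Col6a5, an alternative long chain, was near the detection limit in no BDL, with 0 to 5 reads and 0.0864, 0, 0.429, 0.247 and 0.159 normalized counts. It had 0.904, 2.03, 0.250 and 1.14 in miR-Ctrl BDL, where it was not tested, and 0.750, 2.58, 3.56 and 2.31 in anti-miR BDL, all above no BDL, where it rose by 3.58 on the log2 scale (edgeR adjusted p = 0.00478). Col6a6 had 2 to 20 reads in all mice and was not past the threshold, with a log2 change of 1.07 (edgeR adjusted p = 0.0642) in miR-Ctrl BDL, which was past it without no BDL mouse 5 (edgeR adjusted p = 0.0125). Col6a5 and Col6a6 are neighbours on chromosome 9 and share 3.42% and 3.70% of their 50-base windows.

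Basement membrane collagen was higher after BDL too. All 3 of the collagen IV genes tested rose in miR-Ctrl BDL and 3 of 4 in anti-miR BDL, out of 6. Without the absent mice it was 4 of 5 and 3 of 4, where 22.2% and 18.4% of all genes were higher. Col4a1 (Entrez gene 12826), a chain of the collagen IV found in nearly all basement membranes, had 32.3, 26.1, 16.3, 23.0 and 48.3 normalized counts in no BDL, 85.7, 136, 202 and 73.5 in miR-Ctrl BDL and 79.0, 88.2, 122 and 138 in anti-miR BDL. Here miR-Ctrl mouse 3 was the highest mouse, at 205% of the mean of the others in its group. Col4a1 rose 4.31-fold (edgeR adjusted p = 0.00195) and 3.72-fold (edgeR adjusted p = 0.00344).

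Col4a2, the partner of Col4a1, had 22.6, 20.5, 16.8, 24.7 and 31.4 normalized counts in no BDL, 44.5, 77.9, 30.3 and 42.5 in miR-Ctrl BDL and 53.1, 33.2, 58.0 and 78.0 in anti-miR BDL. It rose 2.15-fold (edgeR adjusted p = 0.0106) and 2.44-fold (edgeR adjusted p = 0.00748), and miR-Ctrl mouse 3, the highest mouse for Col4a1, was the lowest ligated mouse for Col4a2 and the only ligated mouse within the no BDL range. The genes lie head to head on chromosome 8 with starts 84 bases apart and overlapping first exons. Col4a5, a collagen IV chain with a narrower distribution, had 1.47, 1.24, 2.49, 2.71 and 1.75 normalized counts in no BDL, 4.40, 4.11, 3.08 and 4.26 in miR-Ctrl BDL and 2.94, 4.78, 7.91 and 7.92 in anti-miR BDL. It rose by 1.06 (edgeR adjusted p = 0.0101) and 1.63 (edgeR adjusted p = 0.0111) on the log2 scale, with no overlap. Its neighbour on the X chromosome, Col4a6, had 1 read in every no BDL mouse, 9 to 19 reads in miR-Ctrl BDL and 8 to 35 in anti-miR BDL, and was not tested against no BDL because of its low counts. Col4a3 had 1 to 21 reads and Col4a4 0 to 13, and the log2 change of Col4a3 in anti-miR BDL was 0.48 (edgeR adjusted p = 0.503).

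Fibril-associated collagens, which decorate the surface of fibrils, were mixed. Col16a1 had 3.97, 2.77, 2.75, 1.64 and 2.94 normalized counts in no BDL, 7.89, 9.06, 5.25 and 7.26 in miR-Ctrl BDL and 7.63, 5.54, 12.4 and 13.5 in anti-miR BDL. All ligated mice were above no BDL, and it rose by 1.42 (edgeR adjusted p = 0.00230) and 1.83 (edgeR adjusted p = 0.00462) on the log2 scale. Col12a1, found in dense connective tissue, had 1.81, 2.10, 0.773, 2.06 and 2.39 normalized counts in no BDL, 3.25, 4.95, 5.67 and 2.76 in miR-Ctrl BDL and 5.13, 2.5, 4.77 and 4.72 in anti-miR BDL. The groups did not overlap with no BDL, and Col12a1 rose by 1.20 (edgeR adjusted p = 0.0177) and 1.26 (edgeR adjusted p = 0.0238) on the log2 scale. These calls were lost without miR-Ctrl mouse 2 (edgeR adjusted p = 0.0515) and, in the other comparison, without no BDL mouse 1 (0.0542), anti-miR mouse 3 (0.0715) or anti-miR mouse 4 (0.0660).

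Col14a1 (Entrez gene 12818), a fibril-associated collagen of quiescent fibroblasts and stellate cells, had 40.8, 34.5, 34.9, 25.7 and 35.1 normalized counts in no BDL, 30.6, 43.3, 9.75 and 30.1 in miR-Ctrl BDL and 47.1, 7.89, 46.1 and 62.3 in anti-miR BDL. The groups overlapped, and the log2 changes were -0.23 (edgeR adjusted p = 0.629), which turned positive with library size alone and without miR-Ctrl mouse 3, and 0.29 (edgeR adjusted p = 0.668). Without anti-miR mouse 2, which had 15.2% of the mean of the others in its group, Col14a1 was higher than in no BDL by 0.62 on the log2 scale (edgeR adjusted p = 0.0153). Col20a1 had 2.42, 1.72, 2.15, 2.22 and 1.03 normalized counts in no BDL and 1.02, 0.894, 0.583 and 0.540 in miR-Ctrl BDL, all below no BDL, where it fell 2.42-fold (edgeR adjusted p = 0.0121). In anti-miR BDL it had 1.00, 0.683, 1.21 and 1.13 and overlapped with no BDL, with a log2 change of -0.87 (edgeR adjusted p = 0.0622), and was past the threshold without no BDL mouse 5 (edgeR adjusted p = 0.0204). With library size alone Col20a1 was not past the threshold in miR-Ctrl BDL (edgeR adjusted p = 0.269).

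Collagen XVIII had the highest level of any collagen gene in every group. Col18a1 (Entrez gene 12822, chr10:77052178-77166530), a multiplexin whose cleaved end is endostatin, had 1045, 1312, 1231, 1068 and 916 normalized counts in no BDL, 821, 802, 819 and 764 in miR-Ctrl BDL and 944, 1004, 889 and 737 in anti-miR BDL. The miR-Ctrl BDL mice were all below the no BDL mice, and the anti-miR BDL mice overlapped with them. In miR-Ctrl BDL Col18a1 fell 1.37-fold, a log2 change of -0.45 (SE 0.14, edgeR adjusted p = 0.0346), a call lost in 7 of the 9 fits that left out 1 mouse, and its log2 change was positive, 0.35, with library size alone. Those 7 fits left out no BDL mouse 1, 2, 3 or 4 or miR-Ctrl mouse 1, 2 or 4, and gave edgeR adjusted p values of at most 0.0910. For anti-miR BDL the log2 change was -0.30 (edgeR adjusted p = 0.260) and likewise turned positive, 0.51 (edgeR adjusted p = 0.0370), with library size alone. The absent mice had 103% and 117% of the mean Col18a1 of the others in their groups.

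Col15a1, the other multiplexin, had 9.94, 6.48, 8.93, 11.6 and 15.8 normalized counts in no BDL, 19.1, 15.1, 7.33 and 13.1 in miR-Ctrl BDL and 19.8, 2.81, 19.1 and 16.2 in anti-miR BDL, with the absent mouse the lowest of each BDL group. Its log2 changes were 0.40 (edgeR adjusted p = 0.329) and 0.49 (edgeR adjusted p = 0.480). Without anti-miR mouse 2 it was higher than in no BDL by 0.82 on the log2 scale (edgeR adjusted p = 0.0277).

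The remaining collagen genes were low in all livers. Col8a1, a network-forming collagen of vessels, had 4 to 56 reads and log2 changes of 0.94 (edgeR adjusted p = 0.0541) and 1.36 (edgeR adjusted p = 0.0707). In miR-Ctrl BDL it passed the threshold without miR-Ctrl mouse 3 (edgeR adjusted p = 0.0337), no BDL mouse 1 (0.0398) or no BDL mouse 5 (0.0393), and in anti-miR BDL without anti-miR mouse 2 (edgeR adjusted p = 0.0151). Its partner Col8a2 had 0 to 2 reads in no BDL, 4 to 14 in miR-Ctrl BDL and 5 to 22 in anti-miR BDL and was not tested against no BDL. The transmembrane collagen Col13a1 had 10 to 61 reads and log2 changes of -0.64 (edgeR adjusted p = 0.254) and -0.34 (edgeR adjusted p = 0.570), both positive with library size alone. Col25a1, another transmembrane collagen, had 1 to 22 reads and a log2 change of -1.19 (edgeR adjusted p = 0.213) in anti-miR BDL. Col7a1, which anchors skin to its basement membrane, had 2 to 16 reads, and Col9a3 had 0 to 23, and neither was tested against no BDL.

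Of the 44 collagen genes, 14 passed the filter on low counts in none of the 3 comparisons. No read was counted in any mouse for Col2a1 and Col9a1, which are among the collagen genes known from cartilage, or for Col19a1 and Col26a1. The highest count in any mouse was 13 for Col4a4, 10 for Col24a1, 9 for Col23a1, 7 for Col11a1, 3 for Col28a1, 2 for Col9a2, Col10a1 and Col22a1, and 1 for Col6a4 and Col17a1.

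Levels between genes were compared as mean normalized counts per kilobase of annotated exon. In no BDL, Col18a1 was at 164 (135 to 193 over the mice), followed by Col5a3 at 14.5 (12 to 16.8), Col27a1 at 5.95, Col14a1 at 5.30, Col3a1 at 4.85, Col4a1 at 4.42 and Col4a2 at 3.60. Col18a1 and Col5a3 stood clear of the next gene, and the ranges of Col27a1 to Col4a2 overlapped. In miR-Ctrl BDL the order was Col18a1 at 118 (112 to 121), Col3a1 at 29.4, Col4a1 at 18.8, Col1a1 at 16.5 and Col1a2 at 15.5. In anti-miR BDL it was Col18a1 at 132 (109 to 148), Col3a1 at 37.4, Col1a1 at 22.3, Col1a2 at 21.0 and Col4a1 at 16.1. After Col18a1, the ranges of these 4 genes overlapped in both BDL groups. Col1a1 thus moved from rank 11 in no BDL to ranks 4 and 3, and Col5a3 from rank 2 to ranks 8 and 10.

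Read shares were taken over the 22246 genes whose counts are the same in every table, not over all gene reads. Of these reads collagen genes took 0.102% ± 0.0166 (SD, n = 5) in no BDL. They took 0.193% ± 0.0491 (SD, n = 4) in miR-Ctrl BDL and 0.232% ± 0.0635 (SD, n = 4) in anti-miR BDL. The highest no BDL mouse, at 0.130%, was below the lowest miR-Ctrl BDL mouse, at 0.147%, and the lowest anti-miR BDL mouse, at 0.151%. Without Col18a1 the shares were 0.0228%, 0.0946% and 0.120%. Counting error was small beside these differences, with 95% Wilson intervals such as 0.0874% to 0.0901% for no BDL mouse 5, which cover counting error only. Read shares are not scaled between mice. With library size alone, the median log2 change of all genes against no BDL was also positive, 0.79 in miR-Ctrl BDL and 0.82 in anti-miR BDL. Col18a1 by itself, which was lower in miR-Ctrl BDL after TMM, took 0.0789% in no BDL, 0.0989% in miR-Ctrl BDL and 0.112% in anti-miR BDL.

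The balance of collagen I to collagen III also differed. The ratio of Col1a1 to Col3a1 counts per kilobase, which does not depend on library scaling, was 0.260, 0.182, 0.308, 0.359 and 0.300 in no BDL. It was 0.507, 0.495, 1.00 and 0.577 in miR-Ctrl BDL and 0.466, 0.967, 0.719 and 0.575 in anti-miR BDL. All ligated mice were above all no BDL mice, and the absent mouse was the highest of each BDL group. The ratio was 2.24-fold higher in miR-Ctrl BDL and 2.39-fold higher in anti-miR BDL than in no BDL (exact two-sided permutation test on log2 ratios, p = 0.00794 for both, the smallest that 4 mice against 5 can give, and 0.0119 after Benjamini-Hochberg adjustment over 3 comparisons). With Col1a2 in place of Col1a1 the log2 differences were 0.38 (exact permutation p = 0.127) and 0.60 (exact permutation p = 0.103). Between the BDL groups, over the 3 mice of each in their table, the Col1a1 to Col3a1 log2 difference was 0.14 (exact permutation p = 0.700, smallest possible 0.1).

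**Figure D4:**
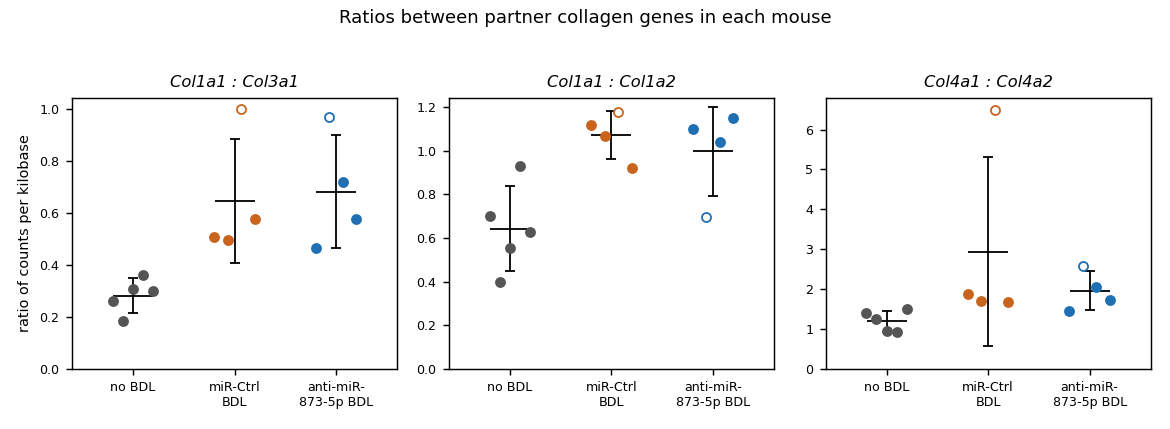
Ratios of counts per kilobase (y axis) between partner collagen genes in each mouse of the 3 groups (x axis), with bars for the mean ± SD and open symbols for miR-Ctrl mouse 3 and anti-miR mouse 2. The Col1a1 to Col3a1 ratio is above 0.359, the highest no BDL value, in every ligated mouse, and miR-Ctrl mouse 3 has a Col4a1 to Col4a2 ratio of 6.49.

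The ratio of Col1a1 to Col1a2 averaged 0.643 ± 0.196 (SD, n = 5) in no BDL, 1.07 ± 0.110 (SD, n = 4) in miR-Ctrl BDL and 0.997 ± 0.204 (SD, n = 4) in anti-miR BDL, and its ranges overlapped between groups. The ratio of Col4a1 to Col4a2 was 0.910 to 1.5 in no BDL, 1.45 to 2.59 in anti-miR BDL, and 1.68 to 1.88 in miR-Ctrl BDL except for mouse 3. These ratios were not tested.

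The comparison of the BDL groups asks what blocking miR-873-5p does in ligated mice, and in it no collagen gene was past the threshold. Of 29 tested, 0 were called at an adjusted p of 0.05 by edgeR, with a lowest edgeR adjusted p of 0.757. EdgeR called 0% of all 13746 genes. DESeq2 also called 0 collagen genes, and its share of all genes is not given here. At an unadjusted p under 0.05 edgeR had 1 collagen gene, Col14a1, and 6.28% of all genes. The log2 changes of 26 collagen genes were positive, that is in the direction of more RNA in anti-miR BDL, and 3 were negative, with a median of 0.43 against 0.01 for all genes. Collagen genes share mice and cells of origin and are not independent, so no test was made over them.

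Col14a1 was the only collagen gene named above as passing without adjustment. In the 3 mice of each group used, its 47.1, 46.1 and 62.3 normalized counts in anti-miR BDL were all above the 30.6, 43.3 and 30.1 of miR-Ctrl BDL, a log2 change of 0.58 (SE 0.19, edgeR adjusted p = 0.757). Col1a1 had a log2 change of 0.61 (SE 0.30, edgeR adjusted p = 0.781), Col1a2 of 0.54 (edgeR adjusted p = 0.782), Col3a1 of 0.43 (edgeR adjusted p = 0.836) and Col6a3 of 0.72 (edgeR adjusted p = 0.781). In each of these 4 genes the BDL groups overlapped. The other positive values ran from 0.10 for Col18a1 to 0.85 for Col4a3. The 3 negative values were those of Col5a3, at -0.24 (edgeR adjusted p = 0.910), Col6a6, at -0.15 (edgeR adjusted p = 0.95), and Col13a1, at -0.01 (edgeR adjusted p = 0.998).

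Of the 4 collagen genes with a seed match, 2 were tested between the BDL groups, Col1a1 as above and Col12a1, with a log2 change of 0.41 (edgeR adjusted p = 0.811). Over all genes the median log2 change was -0.0015 for 2112 genes with a match and 0.0023 for 10761 genes without. The printed Gnmt sequence, which the study reports as a target, lacks the letters. The medians therefore compare genes by the letters only and cannot tell targets from other genes.

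**Figure D5:**
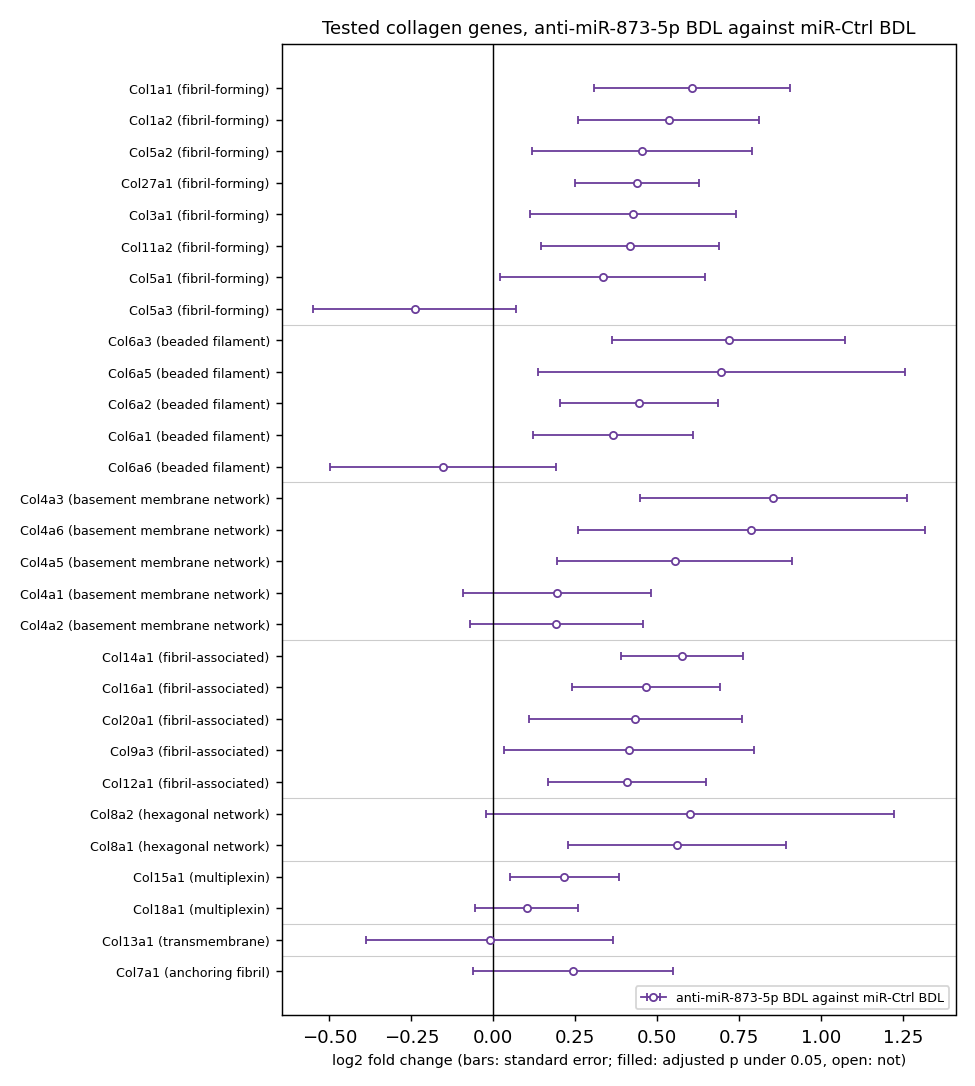
Log2 fold change (x axis) of each collagen gene tested (y axis, grouped by class) in anti-miR BDL against miR-Ctrl BDL, with bars for the standard error and open points for an adjusted p of 0.05 or more. All 29 points are open, 26 lie right of 0, and they run from -0.24 for Col5a3 to 0.85 for Col4a3.

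Many genes of the collagen machinery were higher in ligated livers. Over 6 lists of genes that modify, fold, cut, cross-link, assemble or bind collagen, 25 of 44 tested were higher in miR-Ctrl BDL than in no BDL and 0 were lower, 22 of 46 were higher in anti-miR BDL than in no BDL and 0 were lower, and 0 of 47 were called between the BDL groups. Beside these and the counts of single lists below stand the shares of all genes tested, 19.1% higher and 16.6% lower in miR-Ctrl BDL and 13.1% and 8.44% in anti-miR BDL. Among 15 genes of prolyl and lysyl hydroxylation and glycosylation, 9 of 12 tested rose in miR-Ctrl BDL and 6 of 12 in anti-miR BDL. Colgalt1, which adds galactose to hydroxylysine, rose by 1.04 (edgeR adjusted p = 0.000497) and 0.76 (edgeR adjusted p = 0.00441) on the log2 scale. P4hb, a subunit of prolyl hydroxylase and the gene of this list with the most reads, was at 0.09 (edgeR adjusted p = 0.683) and 0.06 (edgeR adjusted p = 0.836).

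Serpinh1, the collagen chaperone HSP47, rose by 1.47 (edgeR adjusted p = 0.00634) and 1.75 (edgeR adjusted p = 0.0407), among 3 of 6 and 3 of 7 tested genes of folding and export. Of the genes that trim the ends of procollagen, 3 of 5 rose in each comparison, with Adamts2 at 0.98 (edgeR adjusted p = 0.0251) and 1.8 (edgeR adjusted p = 0.00748), while Bmp1 was at -0.33 (edgeR adjusted p = 0.118) and -0.08 (edgeR adjusted p = 0.781). Of the lysyl oxidases that cross-link fibres, 3 of 5 rose in each comparison, among them Loxl1 by 2.30 (edgeR adjusted p = 0.000970) and 2.59 (edgeR adjusted p = 0.00260). Of 9 genes of fibril assembly 3 and 5 rose, and 6 and 8 did without the absent mice, where 22.2% and 18.4% of all genes were higher. Sparc, a collagen-binding matrix protein, rose by 1.5 (edgeR adjusted p = 0.00192) and 1.84 (edgeR adjusted p = 0.00680), and fibronectin (Fn1) was at 0.12 (edgeR adjusted p = 0.686) and 0.13 (edgeR adjusted p = 0.639). Of the collagen receptors 4 of 7 and 2 of 8 rose, including Ddr1, a receptor tyrosine kinase of epithelial cells, by 3.91 (edgeR adjusted p = 5.4e-05) and 3.76 (edgeR adjusted p = 0.000278). Without the absent mice 4 of 7 and 3 of 8 receptors rose. Of the genes that trim procollagen, 1 of 5 was then lower in miR-Ctrl BDL, where 20.1% of all genes were lower.

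Marker lists of several of the liver's cell types differed between ligated and no BDL mice while others did not, and their part in the collagen changes was not tested. The summed normalized counts of 7 of 9 stellate cell markers were 50.8 to 94.3 in no BDL, 30.5 to 124 in miR-Ctrl BDL and 37.0 to 138 in anti-miR BDL, with miR-Ctrl mouse 3 and anti-miR mouse 2 the lowest of the 13. Of the 9 markers 1 was higher and 1 lower in miR-Ctrl BDL, and 2 higher and 1 lower in anti-miR BDL. With all mice included, each count was within 1 gene of what the shares of all genes would give. With the absent mouse of each BDL group left out, 3 of 9 stellate markers (33.3%) rose and 1 (11.1%) fell in each comparison. Among all genes, 22.2% then rose against no BDL in the miR-Ctrl fit and 18.4% in the anti-miR fit, while 20.1% and 13.4% fell. The stellate counts thus depended on these mice. The receptor Pdgfrb was higher in both comparisons. Ecm1, the marker of this list with the most reads and not in the sum, was lower in both. Its log2 changes were -0.84 (edgeR adjusted p = 0.00882) and -0.89 (edgeR adjusted p = 0.00815). The sum of 8 endothelial markers was also lowest in miR-Ctrl mouse 3 and anti-miR mouse 2, at 36.6 and 55.2, against 112 to 172 in no BDL. In either comparison 0 of 8 endothelial markers was higher. Of the 8, 0 were lower in miR-Ctrl BDL and 1 in anti-miR BDL, the VEGF receptor Kdr, with a log2 change of -1.27 (edgeR adjusted p = 0.0385) and 2.73 to 12.7 normalized counts against 16.1 to 24.5 in no BDL. In miR-Ctrl BDL Kdr had 0.5 to 11.1 normalized counts and a log2 change of -1.35 (edgeR adjusted p = 0.0808), not past the threshold. Without the absent mice, 1 and 2 of 8 endothelial markers were lower, where 20.1% and 13.4% of all genes were lower.

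Portal fibroblast markers, 8 genes, summed to 10.8 to 14.5 in no BDL, 35.1 to 59.6 in miR-Ctrl BDL and 33.5 to 86.6 in anti-miR BDL, and 4 and 5 of 6 tested rose. Of 6 myofibroblast markers 2 and 1 of 5 tested rose, Timp1 in both comparisons and Acta2 in miR-Ctrl BDL, with a log2 change of 1.11 (edgeR adjusted p = 0.0412) there and 1.21 (edgeR adjusted p = 0.0621) in anti-miR BDL. The 4 of them that could be summed, without Acta2 and Tpm2, came to 9.82 to 19.7, 17.9 to 56.2 and 14.1 to 33.7. Timp1, an inhibitor of matrix proteases that other cells also make, was 0 to 0.329, 5.58 to 50.4 and 4.94 to 10.6 of these sums, while Tagln, a contractile marker, had 6.20 to 16.2, 4.42 to 15.9 and 5.62 to 18.9 and was not past the threshold (edgeR adjusted p = 0.656 and 0.390). Cholangiocyte markers summed to 29.3 to 39.2, 69.5 to 111 and 64.0 to 154, with 7 of 8 higher in both comparisons. Macrophage markers summed to 101 to 537, 588 to 1425 and 388 to 1127, with 5 and 2 of 7 higher, and neutrophil markers to 8.58 to 22.1, 23.3 to 239 and 20 to 80.7, with 3 of 4 higher in both. The 4 mesothelial markers, those of the cells that cover the liver's surface, summed to 0 to 0.329 in no BDL, near the detection limit, and to 12.7 to 50.4 and 11.1 to 41.4 in the ligated groups, with 4 of 4 higher in both. Hepatocyte markers, which identify the tissue as liver, summed to 98064 to 117350 in no BDL, 43957 to 75790 in miR-Ctrl BDL and 38501 to 89277 in anti-miR BDL, and 5 and 2 of 7 were lower. Most of these sums was Alb, with 76458 to 89824, 34304 to 64070 and 30562 to 66371. Alb itself was not past the threshold (edgeR adjusted p = 0.0931 and 0.168). Without the absent mice, portal fibroblast markers were higher in 6 and 6 of 6 tested, and myofibroblast markers in 2 and 2 of 5. Cholangiocyte markers were then higher in 7 and 8 of 8, and macrophage markers in 6 and 3 of 7. Of the hepatocyte markers 5 and 4 of 7 were then lower. In those fits 22.2% and 18.4% of all genes were higher, and 20.1% and 13.4% lower. The markers named here singly were chosen after their values were seen. No listed marker was at 0 in all mice of a group. The counts of the marker lists and of the lists of collagen machinery were made with TMM scaling only, and between the BDL groups 0 markers passed the threshold in any list.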

How the data were processed

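Libraries were made by the study from liver RNA with the TruSeq RNA v2 kit, which does not mark strand, and sequenced as single reads of 50 bases. Reads were mapped to mm10 with TopHat, and the authors deposited unnormalized whole-number counts for each Entrez gene, with a separate table for each comparison. The processing notes also name CASAVA 1.8.2, FastQC, Trim Galore and DESeq2. The program that made the counts is not given in the sources used here. The 44 collagen genes had identical counts in all tables that share a mouse.

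The tests were run in R 4.3.3 with edgeR 4.0.16 (filterByExpr, TMM, glmQLFit and glmQLFTest, Benjamini-Hochberg adjustment over all genes tested, threshold 0.05), with limma 3.58.1 and with DESeq2 1.42.0 as an alternative test. Each comparison used all mice of its table, which for the BDL groups is 3 against 3. Genes tested numbered 13072, 13130 and 13746. Levels of all 13 mice were put on 1 scale over the 22246 genes whose counts are the same in every table, 12984 after the filter. A summed list leaves out 10 genes whose counts differ between tables (Acta2, Adamts2, Cps1, Des, Ecm1, Fn1, Lox, Loxl2, Spp1 and Tpm2). Exon lengths and 3′ UTRs were taken from GENCODE M21, gene positions and promoters from RefSeq for GRCm38. Overlap with other genes was at most 7.68% of exon bases (Col9a3 with Tcfl5), and at most 4.87% of the 50-base windows of a collagen gene occurred in another gene.

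The tests were tested on simulated data in which 200 genes had a true log2 change of 2. There edgeR recovered 91.5%, 92.0% and 86.5% of them in the 3 comparisons, with 7.11%, 2.65% and 4.42% of calls on unchanged genes. Between the BDL groups the collagen genes had smaller log2 changes, from -0.24 to 0.855. The simulation does not tell how often changes of that size would be found. The collagen genes, the gene lists and the rule for named genes were chosen with earlier results of these data known. That rule names each collagen gene tested, with values of every mouse for the main genes of each class, and the genes of other lists with the most reads. Alternatives were other scalings, filters, tests and thresholds, all groups in 1 fit, all mice of both BDL groups, mouse number as a block, and leaving out each mouse. Mice were not treated as paired by their number. Deviations of mice with the same number correlated from -0.198 to 0.349. The 0.349 was mouse 1 between the BDL groups, where the best match had the same number. With so few mice this check cannot settle pairing.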

Additional observations from a re-analysis of the deposited data

Results flagged for a closer look

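In groups of 4 or 5 mice, a single mouse lay far from the others by Dixon's criterion in 5 of 97 groups of collagen values tested, and chance gives about 1 in 20. Anti-miR mouse 2 had 2.5 normalized counts of Col12a1, against 4.72 to 5.13 in the other mice of its group. MiR-Ctrl mouse 2 had 15.9 normalized counts of Col27a1, where the others all had 11.2. No BDL mouse 2 had 0.858 normalized counts of Col7a1, against 0.477 to 0.518, which rests on at most 9 reads per mouse. MiR-Ctrl mouse 3, which the table of both BDL groups lacks, had a Col1a1 to Col3a1 ratio of 1.00 per kilobase, against 0.495 to 0.577. The same mouse had a Col4a1 to Col4a2 ratio of 6.49, against 1.68 to 1.88.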

How the results depend on the processing

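Against no BDL, scaling turned more log2 changes of collagen genes than the other settings, which between the BDL groups was not so. With library size alone the genes called lower numbered 1 in miR-Ctrl BDL and 1 in anti-miR BDL against no BDL, and with library size without the 20 genes with the most counts, a setting chosen after seeing the data, 1 in miR-Ctrl BDL, where the median of all genes was 0.34 in both comparisons. In miR-Ctrl BDL, library size alone turned the log2 changes of Col11a2 to 0.60, Col13a1 to 0.21, Col14a1 to 0.61 and Col18a1 to 0.35, and leaving out those 20 genes turned Col11a2 to 0.14 and Col14a1 to 0.17. In anti-miR BDL the same scalings gave 0.51 and 0.012 for Col13a1 and 0.51 and 0.038 for Col18a1. Between the BDL groups, Col13a1 was 0.040 with library size alone, 0.30 with all mice and 0.44 with the replicate block, Col4a1 was -0.22 with all mice, and Col8a2 was -0.35 with the block. DESeq2 called 14 higher and 4 lower, 15 higher and 3 lower, and 0. With mouse number as a block, edgeR called 12 higher and 4 lower, 12 higher and 3 lower, and 0. Shares of all genes called are not given beside the counts of this section. Such counts show only how the collagen calls moved with the setting.

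Leaving out 1 mouse gave 13 to 16 genes higher and 3 to 4 lower in miR-Ctrl BDL and 13 to 18 higher and 1 to 3 lower in anti-miR BDL, the 1 being without anti-miR mouse 3. Log2 changes across these fits ran from -0.51 to 0.043 for Col14a1 in miR-Ctrl BDL, and between the BDL groups from -0.36 to 0.29 for Col13a1, -0.56 to 0.042 for Col5a3, -0.33 to 0.14 for Col6a6 and -0.021 to 0.29 for the Col1a1 to Col3a1 ratio. The ratio of mean read shares of collagen genes to no BDL, 1.93 and 2.29, became 4.23 and 5.29 without Col18a1, a choice made after seeing the data. With Col1a2 for Col1a1, the ratio to Col3a1 differed by 0.38 and 0.60, neither past the threshold. With 3 mice against 3 the exact test of that ratio cannot pass 0.05, and genes with under about 10 reads could not be compared at this depth.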
